A study of Mus musculus with 4 samples.

Results

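The genes described here are 10 genes of ammonia disposal in the mouse liver: the urea cycle enzymes Cps1, Otc, Ass1, Asl and Arg1, the activator-making enzyme Nags, the mitochondrial ornithine carrier Slc25a15, and the nitrogen-releasing enzymes Gls2, Hal and Sds. They were chosen by name for their function, with earlier results of these data known, and each has 1 row of its own among the 25572 loci with values in the authors' deposited table. All 10 were among the 13320 loci that the authors tested. Liver RNA was sequenced from C57BL/6J mice 8 weeks of age, 2 of them wild type (WT), the controls for the knockout, and 2 labelled Ern1-LKO, in which Ern1 is knocked out in the liver, and called LKO below after that label. No other allele or agent is named in the labels, and how Ern1 was deleted, or in which liver cells, is not stated in the labels. The comparison asks which liver transcripts differ with the loss of Ern1, which encodes IRE1α, a stress sensor of the endoplasmic reticulum. The label could not be checked at the RNA level. Ern1 stood at 21.4 FPKM in WT and 30.2 in LKO (p = 0.0084, q = 0.172 in the authors' deposited table). It was thus higher in LKO at a p under 0.05 before adjustment over all tested loci, and not after it. A gene-level value also counts exons outside a deleted part.

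FPKM counts fragments scaled by transcript length and by the number of mapped fragments, so levels can be set side by side between genes. The table gives 1 FPKM per genotype and none per library. The spread between the 2 mice of a genotype is therefore not shown, a single mouse could carry any difference below, and the read depth behind each value is unknown. Error is given as the standard error (SE) of the log2 fold change implied by the authors' test statistic, and 95% intervals of a ratio were computed from it. A gene is called where the authors' q lies under 0.05. In whole liver, fewer cells of a type and less RNA per cell cannot be told apart.

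The urea cycle turns ammonia, which is toxic, into urea. Carbamoyl phosphate is made and joined to ornithine inside the mitochondrion, citrulline leaves for the cytosol, and arginine is formed there and split into urea and ornithine, which a carrier returns to the mitochondrion. The cycle is most active in periportal hepatocytes, which meet portal blood first, together with enzymes that release nitrogen from glutamine, histidine and serine. Pericentral hepatocytes downstream capture ammonia that escapes by making glutamine.

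None of the 10 genes was called, in a comparison where the authors called 2.74% of all tested loci and 3.24% of the 2869 tested loci with a mean FPKM of at least 20. The 5 urea cycle enzymes all stood slightly above WT, with ratios of LKO to WT FPKM between 1.02 (Arg1) and 1.18 (Cps1). Nags, at a ratio of 0.75, and Hal, at 0.77, stood lowest, and Sds, at 1.39, stood highest. Nags and Hal were the 2 members with an unadjusted p under 0.05, and both stood below WT, against 10.3% of all tested loci in either direction and 4.53% below WT. The median log2 fold change of the 10 genes was 0.06, beside -0.01 over all tested loci.

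**Figure D1:**
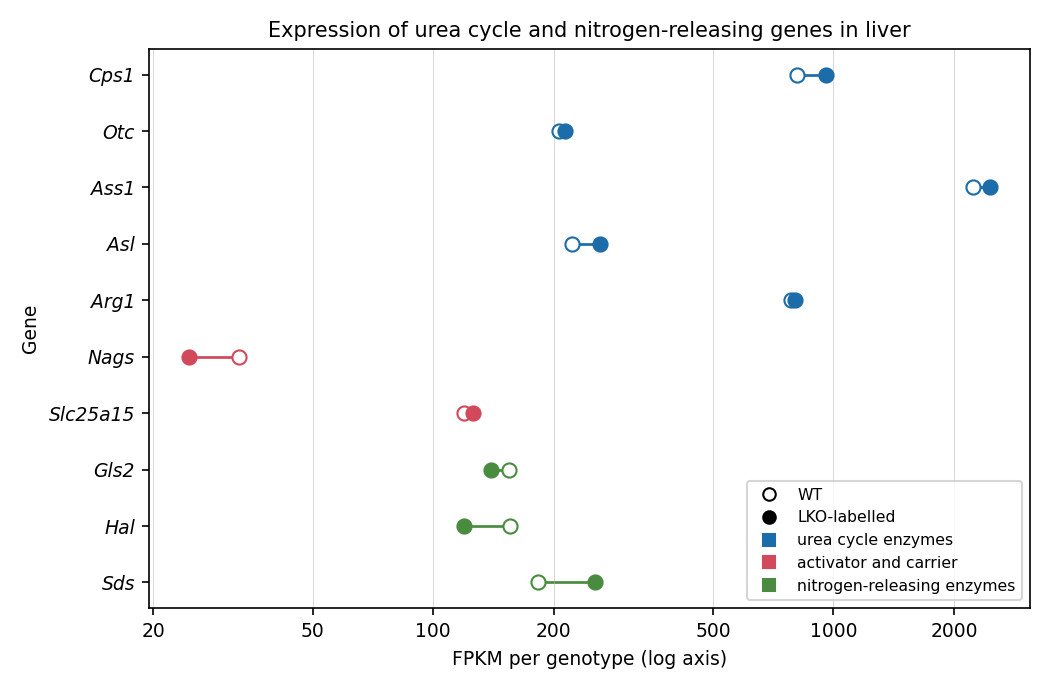
FPKM of each gene on a log axis, with open points for WT and filled points for LKO, 1 value per genotype, and colours for the role of the gene. Ass1 lies furthest right, at 2238 and 2458 FPKM, and Nags furthest left, at 32.7 and 24.6, and the paired points lie close together against the range between genes.

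Within both genotypes the members spanned a wide range of levels. Ass1 was the most abundant in FPKM, followed by Cps1, Arg1 and Asl in that order in both genotypes, and Nags was the least abundant in both. By mean FPKM, Ass1 ranked 36 among all tested loci, Cps1 109 and Arg1 125, whereas Nags ranked 2219. Sds and Otc exchanged places in the order between genotypes, and Hal stood ahead of Gls2 and Slc25a15 in WT and behind both in LKO. Whether neighbours in this order differ beyond the spread between mice could not be tested. In both genotypes 9 of the 10 genes stood above 100 FPKM, all but Nags. The summed FPKM of the 5 urea cycle enzymes was 4261 in WT and 4689 in LKO, a ratio of 1.10.

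The mitochondrial steps came first in the pathway. Cps1 (chromosome 1, 67123026 to 67231259, plus strand, mm10, as annotated by GENCODE M21, like the coordinates below) encodes carbamoyl phosphate synthetase, which fixes ammonia and sets the entry to the cycle. It stood at 809 FPKM in WT and 956 in LKO. In the authors' deposited table its log2 fold change is 0.24 (implied SE 0.23) and its q is 0.95. The ratio of 1.18 has an interval from 0.86 to 1.61. Otc (chromosome X, 10252305 to 10321024, plus strand), ornithine transcarbamylase, which makes citrulline, stood at 206 FPKM in WT and 214 in LKO. Its ratio of 1.04 had an interval from 0.83 to 1.29, and its implied SE, 0.16, was the smallest of the members.

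The cytosolic steps showed differences of like size. Ass1 (chromosome 2, 31470207 to 31520672, plus strand), argininosuccinate synthetase, which adds the second nitrogen from aspartate, stood at 2238 FPKM in WT and 2458 in LKO, a ratio of 1.10 (interval 0.82 to 1.47). Asl (chromosome 5, 130011258 to 130029247, minus strand), argininosuccinate lyase, which releases arginine and fumarate, stood at 223 FPKM in WT and 261 in LKO, a ratio of 1.17 (interval 0.93 to 1.47). Arg1 (chromosome 10, 24915221 to 24927484, minus strand), the liver arginase that frees urea, stood at 784 FPKM in WT and 800 in LKO, a ratio of 1.02 (interval 0.80 to 1.31). None of these 3 genes had an unadjusted p under 0.05, and the smallest was 0.18, at Asl, in the authors' deposited table. Ass1 was thus 10.8 times as abundant per length as Otc in WT and 11.5 times in LKO, and Cps1 3.92 times as abundant as Otc in WT and 4.47 times in LKO.

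The 2 supporting genes of the cycle lay on opposite sides of WT. Nags (chromosome 11, 102145513 to 102149477, plus strand) encodes N-acetylglutamate synthase, whose product is the obligate activator of the Cps1 enzyme. It stood at 32.7 FPKM in WT and 24.6 in LKO. Its log2 fold change in the authors' deposited table is -0.41 (implied SE 0.18), with p = 0.0239 and q = 0.324. The interval of its ratio, 0.59 to 0.96, leaves out 1 before adjustment over the 13320 tested loci, and the gene was not called after it. Slc25a15 (chromosome 8, 22375551 to 22398597, minus strand), the carrier that exchanges ornithine and citrulline across the inner mitochondrial membrane, stood at 119 FPKM in WT and 126 in LKO, a ratio of 1.05 (interval 0.84 to 1.32). With Cps1 above WT and Nags below it, Cps1 transcripts per Nags transcript, in FPKM, numbered 24.8 in WT and 38.8 in LKO. This ratio has no test, since the covariance of both values is not in the table.

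The nitrogen-releasing enzymes differed most among themselves. Hal (chromosome 10, 93488768 to 93519304, plus strand), histidine ammonia-lyase, which starts histidine breakdown by releasing ammonia, stood at 156 FPKM in WT and 119 in LKO. Its log2 fold change in the authors' deposited table is -0.38 (implied SE 0.18), with p = 0.0323 and q = 0.381, and the interval of its ratio ran from 0.60 to 0.98. Sds (chromosome 5, 120476526 to 120483932, plus strand), serine dehydratase, which releases ammonia from serine and yields pyruvate, stood at 183 FPKM in WT and 254 in LKO. Its log2 fold change in the authors' deposited table is 0.47 (implied SE 0.27, the largest of the members), with p = 0.0881 and q = 0.621. The interval of its ratio, 0.97 to 1.99, was the widest of the 10 and includes 1. Gls2 (chromosome 10, 128194457 to 128210004, plus strand), the liver glutaminase, which feeds ammonia from glutamine to the cycle, stood at 155 FPKM in WT and 139 in LKO, a ratio of 0.90 (interval 0.71 to 1.14).

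**Figure D2:**
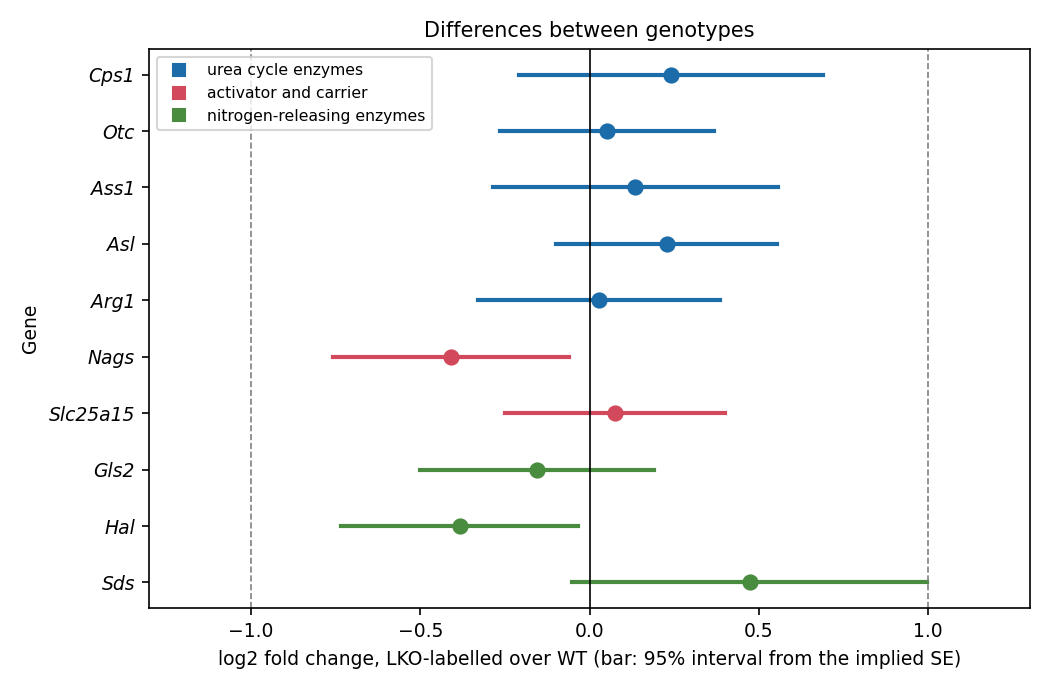
Log2 fold change of LKO over WT FPKM for each gene (points) with its 95% interval from the implied SE (bars), coloured by role, with dashed lines at a 2-fold difference either way. The bars of Nags and Hal lie below 0 before adjustment, the other 8 cross 0, and all 10 stay within the dashed lines.

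The size of difference that these data could have called can be read from the table. The largest p among called loci was 0.00135. At the members' median implied SE of 0.18, a p of that size corresponds to a ratio of 1.49 in either direction, at the smallest SE, that of Otc, to 1.43, and at the largest, that of Sds, to 1.81. All 10 intervals lay within 2-fold of WT, between 0.59 (Nags) and 1.99 (Sds), and 6 lay within 1.5-fold. Differences under these ratios would not have been called at those errors, and the missed threshold does not show equal expression. Among tested loci with a mean FPKM of at least 20, log2 fold changes had a 25th percentile of -0.12 and a 75th of 0.08, and 3 of the 10 genes, Otc, Arg1 and Slc25a15, lay between them.

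**Figure D3:**
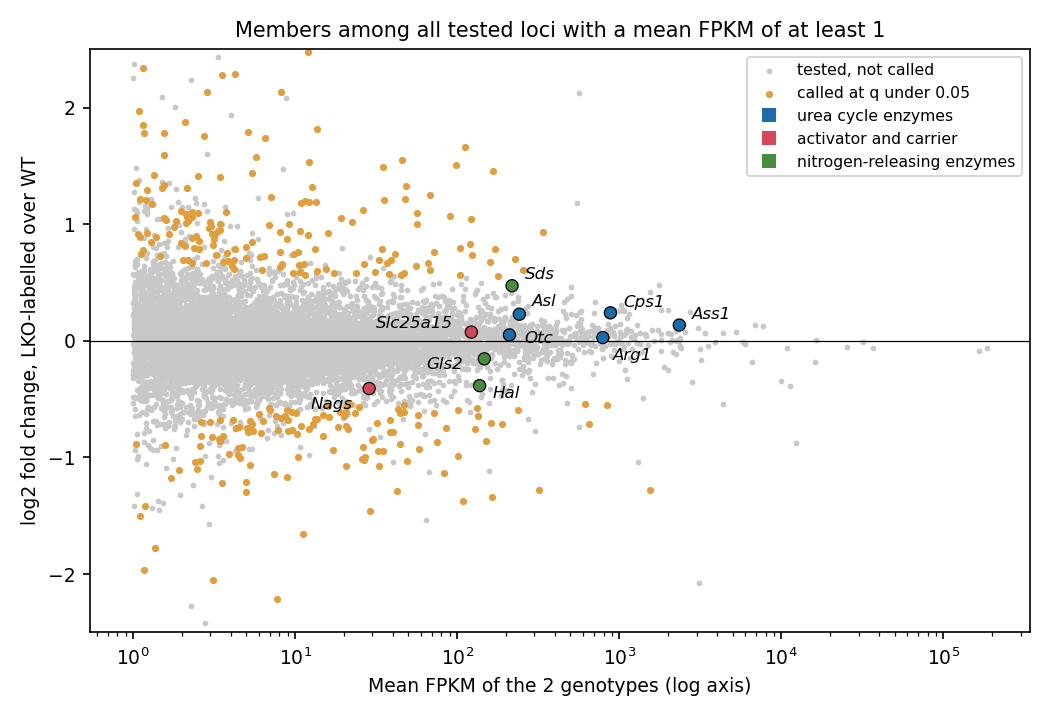
Log2 fold change against mean FPKM (log axis) for the 10708 tested loci with a mean FPKM of at least 1, called loci in orange, with the 10 genes marked and coloured by role; 14 loci lie beyond the plotted range of 2.5 either way. The 10 genes sit among the uncalled loci, with Sds the highest and Nags the lowest of them.

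Some of these genes share ground with neighbours. The table's region for Arg1 also holds Med23, that for Nags holds Tmem101, that for Gls2 holds Spryd4 and that for Sds holds Plbd2, each with its own row. Plbd2, on the opposite strand, overlaps the end of Sds in GENCODE M21, Spryd4 overlaps the end of Gls2, and annotated antisense transcripts lie within Nags and Sds. The labels do not state whether counting used strand, so reads of overlapping partners could not be told apart. The 4 neighbours were not called, and each stood below the member it adjoins, Med23 the lowest at 2.51 FPKM in WT. Their implied SEs were larger than those of the members, from 0.33 at Plbd2 to 1.73 at Med23. The interval of the ratio at Med23 ran from 0.09 to 10.3, so the missing calls say little. Plbd2 stood at 24.9 FPKM in WT and 1.12 FPKM higher in LKO (interval of its ratio 0.67 to 1.63), beside the difference of 70.8 FPKM at Sds.

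Promoters of 5 of the 10 genes, Otc, Ass1, Nags, Slc25a15 and Hal, were matched by symbol in RefSeq sequences of build GRCm38.p6, a patch release of the assembly also called mm10. Those of Nags and Hal, the 2 members with the lowest ratios, are shown with that of Ass1, the most abundant member, each from 250 bases before the transcription start to 50 after it, on the strand of the gene. The regions are chr11:102145263-102145562 for Nags, chr10:93488518-93488817 for Hal and chr2:31470020-31470319 for Ass1, all on the plus strand. Capitals mark matches, on either strand, to the cAMP response element core TGACG, the CCAAT box CCAAT, the TATA box TATAAA, the XBP1 element core GACGTG and the ER stress element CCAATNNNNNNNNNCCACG, where N is any base; TGACG and GACGTG share letters, and the ER stress element contains CCAAT.
Nags: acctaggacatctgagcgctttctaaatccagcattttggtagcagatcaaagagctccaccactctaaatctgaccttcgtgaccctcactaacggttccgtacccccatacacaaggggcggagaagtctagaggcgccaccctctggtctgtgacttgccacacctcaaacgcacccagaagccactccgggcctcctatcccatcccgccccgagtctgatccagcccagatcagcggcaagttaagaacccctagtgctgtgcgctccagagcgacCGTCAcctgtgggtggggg
Hal: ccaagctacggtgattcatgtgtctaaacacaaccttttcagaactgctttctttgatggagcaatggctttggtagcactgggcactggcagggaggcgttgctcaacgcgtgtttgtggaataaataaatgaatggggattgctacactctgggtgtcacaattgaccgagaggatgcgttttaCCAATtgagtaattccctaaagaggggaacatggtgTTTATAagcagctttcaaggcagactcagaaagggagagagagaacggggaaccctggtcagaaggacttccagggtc
Ass1: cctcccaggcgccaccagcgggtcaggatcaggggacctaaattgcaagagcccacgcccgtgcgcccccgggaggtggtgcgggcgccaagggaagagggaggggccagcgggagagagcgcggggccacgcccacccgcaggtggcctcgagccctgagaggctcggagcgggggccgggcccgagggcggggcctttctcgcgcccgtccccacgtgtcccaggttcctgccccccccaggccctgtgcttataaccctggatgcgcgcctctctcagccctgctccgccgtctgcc
The Nags promoter held 1 match to TGACG, on the opposite strand, with its leftmost base 32 bases after the start, and such a match lies in 20.8% of the 32851 promoters of the same length. The Hal promoter held CCAAT, a box bound by the factor NF-Y, from base -64, and TATAAA on the opposite strand from base -28, which lie in 37.4% and 13.6% of promoters. The promoters of Ass1, Otc and Slc25a15 held no match to any of the 5 motifs, and no match to GACGTG (6.38% of promoters) or to the ER stress element (0.119%) was found in the promoters of the 5 genes. A match describes letters in this window and not a binding site.

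Paralogs of Sds and Arg1 were far less abundant. Sdsl, a serine dehydratase-like gene, stood at 13.7 and 12.6 FPKM (q = 0.999 in the authors' deposited table), while Sds stood at 13.3 and 20.2 times those levels. Arg2, the mitochondrial arginase, was too low for the authors to test, at 0.16 and 0.20 FPKM.

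Genes that supply the cycle with nitrogen, bicarbonate and carriers stood mostly above WT. Of 18 tested genes of this list, 1 rose (1.58% of all tested loci rose) and none fell (1.16%). Above WT lay 15 of the 18, against 47.9% of all tested loci, and the median log2 fold change was 0.14. The called gene was Got1, the cytosolic aspartate aminotransferase, which interconverts aspartate and glutamate. It rose from 86.6 to 154 FPKM, with an interval of its ratio from 1.42 to 2.22 and q = 0.00343 in the authors' deposited table. That is the smallest q there and does not single out Got1, since other loci share it, Rhbg and Ppargc1a among them. Gpt2, the mitochondrial alanine aminotransferase, stood at 112 FPKM in WT and 148 in LKO (p = 0.0194, q = 0.289 in the authors' deposited table). Slc7a2, a carrier of cationic amino acids such as arginine and ornithine, stood at 94.7 and 129 FPKM (p = 0.0133, q = 0.229 in the authors' deposited table). The further 15 genes each had an unadjusted p of at least 0.05.

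The steps that follow Hal and those around Sds held no call among 12 tested genes, beside 2.74% of all tested loci. Their median log2 fold change was -0.04. Histidine breakdown runs from Hal through Uroc1 and Amdhd1 to Ftcd, which passes a formimino group to folate. Uroc1 stood at 170 FPKM in WT and 172 in LKO, Amdhd1 at 118 and 100, and Ftcd at 194 and 186. The ratios of the 4 genes were thus 0.77 at Hal, 1.01 at Uroc1, 0.85 at Amdhd1 and 0.96 at Ftcd. Only Hal of the 4 had an unadjusted p under 0.05, and the differences between these ratios were not tested. No gene of the list had an unadjusted p under 0.05 in the authors' deposited table, against 10.3% of all tested loci.

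Other zonated genes of the lobule were set beside the members. Of 15 periportal genes of other functions, 1 was called lower and 0 higher, and 11 stood under WT; the median log2 fold change was -0.16. Over all tested loci 1.16% were called lower, and 47.9% stood above WT. Hsd17b6, a steroid dehydrogenase, fell from 122 to 80.7 FPKM (q = 0.0294 in the authors' deposited table, interval of its ratio 0.52 to 0.84). G6pc, the catalytic subunit of glucose-6-phosphatase, stood at 576 and 435 FPKM, Ctsc, a lysosomal protease, at 37.3 and 28.1, and Cyp17a1, a steroid hydroxylase, at 1.89 and 1.20. These 3 had unadjusted p between 0.0167 and 0.0300 in the authors' deposited table and were not called.

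Of 10 tested pericentral genes, which include those that capture ammonia, 1 rose and 1 fell, and 8 stood over WT, beside 1.58%, 1.16% and 47.9% of all tested loci; the median log2 fold change was 0.22. Glul, the glutamine synthetase that captures ammonia downstream of the cycle, stood at 434 FPKM in WT and 499 in LKO, a ratio of 1.15 (interval 0.90 to 1.46, q = 0.929 in the authors' deposited table). Glul thus stood at 2.80 times the FPKM of Gls2, the opposing enzyme, in WT and at 3.58 times in LKO. This ratio was not tested, and the intervals of both genes include 1. Rhbg, an ammonia transporter, was called higher, at 6.97 FPKM in WT and 16.0 in LKO, a ratio of 2.30 (interval 1.77 to 2.99). Tbx3, a transcription factor, was called lower, at 5.11 and 3.18 FPKM, a ratio of 0.62 (interval 0.47 to 0.82). Slc1a2, a glutamate transporter, stood at 22.5 and 32.4 FPKM (p = 0.0266, q = 0.342 in the authors' deposited table). These lists were chosen with earlier results of these data known, and the difference between their medians was not tested.

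**Figure D4:**
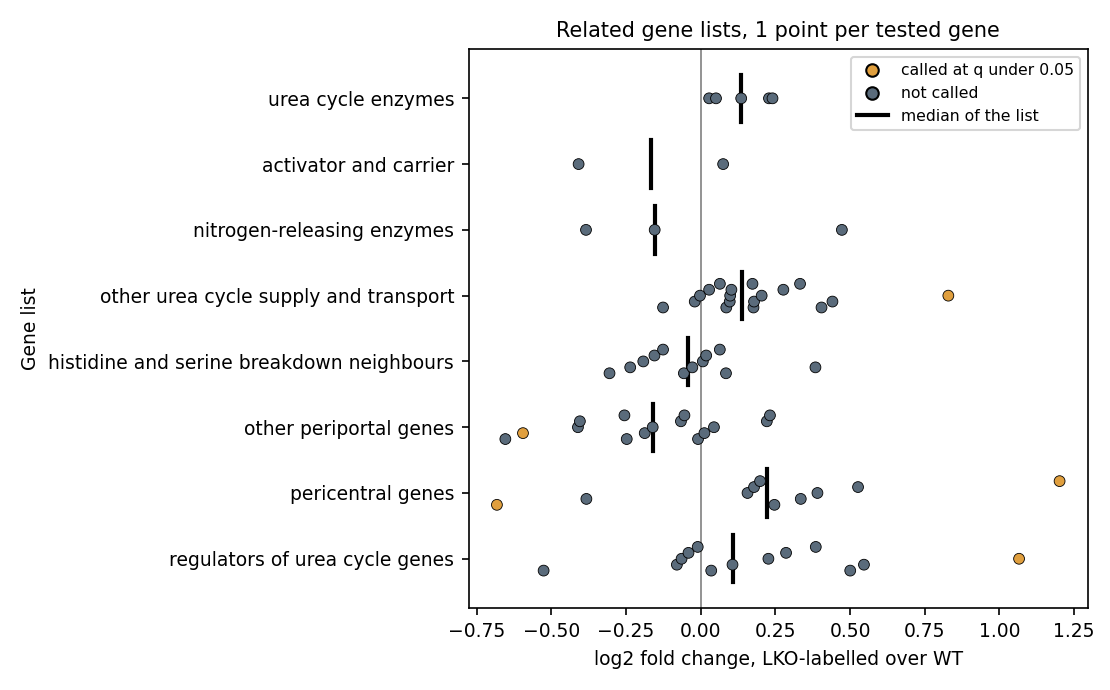
Log2 fold change of LKO over WT FPKM for each tested gene of the members' 3 role groups and of 5 related lists, with called genes in orange and a bar at the median of each list. The 5 urea cycle enzymes all lie just above 0, and the medians run from -0.17 for the activator and carrier to 0.22 for the pericentral genes.

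Factors known to act on urea cycle genes held 1 call among 13 tested genes, beside 2.74% of all tested loci. Ppargc1a, a coactivator of the fasting response, rose from a low level, 1.39 FPKM in WT and 2.91 in LKO, a ratio of 2.09 (interval 1.60 to 2.74). Hnf4a and Gcgr, the hepatocyte factor and the glucagon receptor through which many of these genes are induced, stood at ratios of 0.95 and 0.99. Of the genes with an unadjusted p under 0.05 that were not called, Foxo1, a factor restrained by insulin, stood at 8.26 and 12.1 FPKM, Foxa2, a liver forkhead factor, at 8.04 and 11.4, Nr1i2, the xenobiotic receptor PXR, at 26.7 and 34.9, and Atf4, the effector of the amino acid response, at 67.5 and 46.9. The q values of these 4 lay between 0.0559 (Atf4) and 0.319 (Nr1i2) in the authors' deposited table. Cebpa, the C/EBPα gene, was at 202 and 198 FPKM in a row where the authors' test failed.

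The tissue label was checked against defining markers. The 7 tested hepatocyte markers, Cps1 among them, stood between 809 and 11069 FPKM in both genotypes with no call, and the largest values were at the combined locus of Apoa1 and Sik3 and at Ttr (7027 FPKM in WT and 6212 in LKO). Alb is listed at 0 because the authors' estimate failed there from too many fragments. Markers of other liver cells were much lower and stood mostly above WT in LKO: 7 of 8 Kupffer cell genes (sums of 304 and 311 FPKM in WT and LKO, which include the combined locus of Cd68 and Eif4a1), 6 of 7 endothelial genes (82.6 and 89.0), 7 of 7 stellate cell genes (57.8 and 82.3) and 5 of 6 bile duct genes (46.8 and 56.3). The called genes among them were Vwf, Col1a1, Col3a1 and Onecut1, all higher, and no marker of these lists was at 0. The bile duct sums rest mostly on Onecut1, at 6.06 FPKM in WT and 21.4 in LKO, and Spp1. Onecut1 stood 15.3 FPKM higher in LKO, more than the bile duct sums differ. Without Onecut1 the bile duct sum would therefore stand lower in LKO than in WT. Spp1, the bile duct gene below WT, stood at 37.2 and 30.3 FPKM. Over all tested loci 1.58% were called higher and 47.9% stood above WT. The part of these markers in the members' values was not tested.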

How the data were processed

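Total RNA from mouse liver was extracted with RNAiso and made into libraries with a NEBNext Ultra kit, per the labels' protocols, with 2 libraries per genotype. The submitters' processing notes name bcl2fastq, FastQC 0.11.3, TopHat2 2.0.14, Cufflinks 2.2.1 and mm10, with no roles. Neither the gene annotation, nor how libraries were scaled or dispersion estimated, is given there. The authors' deposited table is, per the file headers, a Cuffdiff comparison with 1 FPKM value for each genotype at each locus. Per the file headers, it also holds the authors' log2 fold change (LKO over WT), test statistic (a signed score), p-value and q-value. Of 25572 loci, 13320 were tested, and 1 line without values was not used.

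The members and gene lists were chosen with earlier results of these data known, so no list was tested and no p was adjusted over a list. Members were found by exact match in the gene column. No test across animals could be run on 1 value per genotype. The implied SE is ln(2) times the log2 fold change, divided by the test statistic, both taken without sign; the z it gives had a median ratio of 1.02 to the z of the deposited p over 6160 loci (5th to 95th percentile 0.998 to 1.09). Intervals assume a normal error and cover the authors' model only. Named beyond the members were the called genes of each list, or the 2 of highest mean FPKM, up to 4 with an unadjusted p under 0.05, and paralogs, of which 1 is not reported here; for the markers of other cells, sums stand in for values. Glul, Amdhd1, Hnf4a, Gcgr and Cebpa were named after their values were seen, to complete a pathway. Alternatives were a q threshold of 0.01, filters at a mean FPKM of 1 or 5, a 2-fold minimum, centring, pseudocounts of 1 and 0.1, and the urea cycle enzymes alone. The centred calls by normal approximation were tested on simulated fold changes drawn with the implied SE. The authors' q, the implied SE and the intervals were not tested in that way. Python 3.11.15 was used with scipy 1.17.1, pandas 2.3.3, numpy 2.4.6 and matplotlib 3.10.9.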

Additional observations from a re-analysis of the deposited data

How the results depend on the processing

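The count of members called was 0 under a q threshold of 0.01, filters at a mean FPKM of 1 and 5, a 2-fold minimum, centring on the median, and a normal approximation without centring, a setting chosen after seeing the data. The members' median log2 fold change of 0.06 stood at 0.06 with a pseudocount of 1 or 0.1 and with the filter at 5, at 0.09 after centring (by the median of -0.02 over tested loci with a mean FPKM of at least 1), and at 0.14 for the urea cycle enzymes alone; no error of a median was computed. Over all tested loci, the 365 calls became 221 at q under 0.01, 175 with the filter at 5 and 165 with a 2-fold minimum; each of these settings tests fewer loci or asks for more. The calls split into 211 higher and 154 lower, against 83 higher and 92 lower with the filter at 5 and 107 and 58 with a 2-fold minimum. By the normal approximation they numbered 481 without centring, 283 higher and 198 lower. With centring they numbered 474, 302 higher and 172 lower, so the larger total came with the approximation rather than the centring. No paired analysis was possible because each genotype has a single FPKM column; neither a replicate block nor leaving out a replicate could be run on it. The read depth is unknown. The implied SE limits what could be called, and how the authors' model derived it with 2 mice per genotype is not given.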
